A study of Mus musculus with 12 samples.

Results

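The cytochrome P450 genes described here are those outside the Cyp2b, Cyp2c, Cyp4a, Cyp7a, Cyp7b, Cyp8b and Cyp27a subfamilies. They were chosen by symbol, as every gene of the array's annotation whose name starts with Cyp, a number and a letter. Of 69 such symbols, 67 had a probe set that carries 1 symbol, out of 22180 genes with such a probe set. The remaining pair, Cyp3a41a and Cyp3a41b, occurs on probe sets shared with Cyp3a11 and Cyp3a44. Of the 67 genes, 3 are named as pseudogenes (Cyp2d37-ps, Cyp4b1-ps2 and Cyp4f41-ps).

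RNA from 3 tissues (liver and the epididymal and inguinal white fat depots) was put on arrays. The mice were male, either Mgl2-DTR or wild-type and matched for age, with 2 arrays in each of the 6 groups. Both genotypes are on the C57BL/6N background, and ages are not given. Mice of both genotypes received diphtheria toxin into the abdomen at 500 ng per dose every 3 days, and tissue was taken on day 10. In Mgl2-DTR mice the toxin receptor is under the control of Mgl2, which encodes CD301b, so that mononuclear phagocytes carrying CD301b are depleted, and other cells that use Mgl2 would be hit as well. The wild-type mice also received toxin, so the genotype comparison holds the toxin constant.

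All levels below are normalized log2 values, on which 1 unit is a factor of 2. Errors of levels are SD over 2 arrays, and errors of differences are SE from the limma fit over all 12 arrays. The filter level here is 5.71, the median of all values of the probe sets that carry 1 symbol. A gene was tested if its mean in at least 1 tissue was above that level. This held for 40 of the 67 P450 genes, and for 12710 genes in all. The 27 others are Cyp1a1, Cyp2ab1, Cyp2d11, Cyp2d12, Cyp2d34, Cyp2g1, Cyp2j8, Cyp2j11, Cyp2j12, Cyp2j13, Cyp2t4, Cyp2w1, Cyp3a16, Cyp3a44, Cyp3a57, Cyp4b1-ps2, Cyp4f37, Cyp4f39, Cyp4f40, Cyp4f41-ps, Cyp11a1, Cyp11b1, Cyp11b2, Cyp21a1, Cyp24a1, Cyp26c1 and Cyp27b1. A gene was called when its p-value, adjusted by Benjamini and Hochberg over all genes tested, was under 0.05. On an array the levels of different probe sets are not comparable, so only differences within a gene are read. The 2 arrays per group limit the precision, and since the labels do not name the animals, a p-value here reflects sample-to-sample spread, which may be technical.

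The tissues matched their labels by marker genes. The mean of 15 hepatocyte genes was 12.04 to 12.06 in liver and 5.37 to 6.65 in fat, and that of 10 adipocyte genes was 11.41 to 12.02 in fat and 6.26 to 6.43 in liver. Some fat arrays stood apart. Hepatocyte genes were highest in epididymal wild-type replicate 2 (mean 6.65, 10 of 15 above the filter level) and inguinal wild-type replicate 2 (6.36, 8 of 15). In the other fat arrays 3 to 6 of 15 were above it. The part of these 2 arrays in the P450 values of fat was not tested. Of 11 epididymal duct and testis genes, 8 were above the filter level in epididymal Mgl2-DTR replicate 2 and 1 or 2 in each other array, with a mean of 9.68 against 4.88 to 5.07 in the other fat arrays. The mean of 10 skeletal muscle genes was 9.78 in inguinal wild-type replicate 2 and 9.50 in inguinal Mgl2-DTR replicate 1, against 6.91 and 6.87 in the other inguinal arrays. The mean of 12 macrophage genes was 10.50 and 9.85 in wild-type and 9.22 and 9.06 in Mgl2-DTR epididymal fat, and 9.79 and 10.01 against 8.11 and 8.87 in inguinal fat. In liver it was 8.59 and 8.55 in wild-type and 9.14 and 9.09 in Mgl2-DTR mice.

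Cytochrome P450 enzymes are haem proteins that insert an oxygen atom into their substrates, with electrons passed on by P450 reductase or, in mitochondria, by ferredoxin. The families treated here clear drugs and toxins (Cyp1a, Cyp2a, Cyp2d, Cyp2e, Cyp3a), oxidise fatty acids and eicosanoids (Cyp2j, Cyp2u, Cyp4f, Cyp4v), make steroid hormones (Cyp11, Cyp17, Cyp21), and activate or break down vitamin D and retinoic acid (Cyp2r, Cyp24, Cyp27b, Cyp26). The liver is known as their main site. In rodents many liver P450 genes belong to tandem clusters of close copies, and several differ between the sexes.

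In the RefSeq annotation of GRCm38.p6, 46 of the 67 genes lay in 12 runs of genes of this set, and 21 lay alone. Within a run, at most 3 other genes lay between one and the next. P450 genes outside the set counted as other genes, so a gene counted as alone may lie beside one. The longest run held 7 Cyp2j genes. Another run held Cyp3a44, Cyp3a11, Cyp3a25 and Cyp3a59, and another held Cyp2g1, Cyp2a5, Cyp2a22, Cyp2a12, Cyp2f2 and Cyp2t4.

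Most of these P450 genes were higher in liver than in fat, in both genotypes. The difference between liver and the mean of both fat depots was called for 34 of the 40 tested genes in wild-type mice, 31 higher and 3 lower in liver. Among all genes tested 57.1% were called in this comparison, 23.2% higher and 34.0% lower. In Mgl2-DTR mice 32 were called, 30 higher and 2 lower, against 53.6% of all genes, 19.9% higher and 33.7% lower. In all, 29 genes were higher in liver in both genotypes and 2, Cyp1b1 and Cyp20a1, were lower in both.

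The filter shapes this count, since 20 of the 40 genes passed it in liver but in neither fat depot and so had to be higher in liver. Of those 20, 19 were called higher in both genotypes. For these genes the fat level is not clearly above background, so the size of an excess given below, and the order of such sizes, depends on where the dim fat values lie. Another 3 genes, Cyp1b1 among them, passed the filter in fat only and so had to be lower in liver than in a fat depot. The other 17 genes with a liver level above the filter level also passed it in fat. Of these 17, 11 were higher in liver and 1 was lower in each genotype. Among the 10313 genes above the filter level in liver and in fat, 21.4% were higher and 31.5% lower in wild-type mice, and 18.4% higher and 31.2% lower in Mgl2-DTR mice. Counting also the genes below the filter level, the liver mean was above the mean of each fat depot for 53 of the 67.

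**Figure D1:**
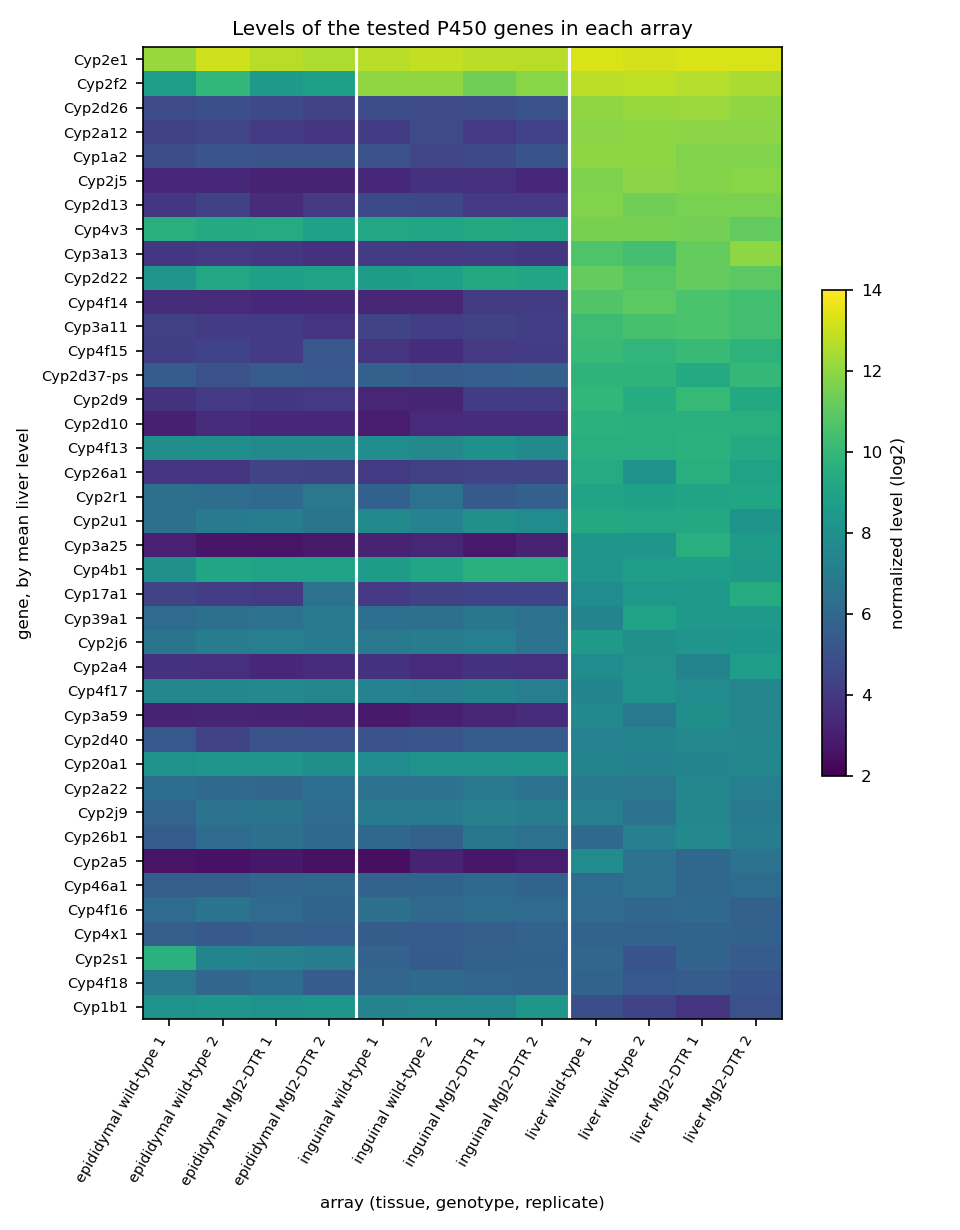
Normalized level (log2, colour) of the 40 tested P450 genes (rows, ordered by mean liver level) in each of the 12 arrays (columns, by tissue, genotype and replicate). Cyp2j5 lies between 3.13 and 3.73 in the 8 fat arrays and between 11.69 and 11.90 in the 4 liver arrays, whereas Cyp1b1 at the bottom is higher in fat. Colours of different rows are not comparable.

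The promoters of the genes called higher in liver were searched for short motifs, a feature that the expression values do not use. The match near the start is shown first, and many of these promoters lack it. RefSeq promoter windows of GRCm38.p6, 300 bases from 250 before to 50 after the start, were at hand for 50 of the 67 genes and for 23 of the 29 genes called higher in liver in both genotypes. The letters TATAAA, on either strand, occurred in 13 of these 23 (56.5%), in 5 of the 27 other P450 genes (18.5%) and in 15.7% of all 27025 genes. With the first letter between 40 and 20 bases before the start, a range chosen after the values were seen, they occurred in 8 of 23 (34.8%), 2 of 27 (7.41%) and 3.01%. Several of these genes are recent copies of each other and do not count as independent cases. A match of letters is a description and says nothing about which protein binds there.

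The windows of 36 bases below, written 5′ to 3′ along the gene, have the TATAAA match in capitals (TTTATA where it lies on the opposite strand). They show how alike the copies are around it.
Cyp2a4, chr7:26307149-26307184, plus strand: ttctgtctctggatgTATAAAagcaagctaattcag
Cyp2a5, chr7:26835295-26835330, plus strand: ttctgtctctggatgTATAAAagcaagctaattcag
Cyp2a12, chr7:27029036-27029071, plus strand: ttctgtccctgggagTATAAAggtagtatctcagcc
Cyp2a22, chr7:26939394-26939429, minus strand: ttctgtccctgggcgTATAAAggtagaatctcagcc
Cyp1a2, chr9:57683664-57683699, minus strand: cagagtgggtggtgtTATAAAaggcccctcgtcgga
Cyp2d26, chr15:82794256-82794291, minus strand: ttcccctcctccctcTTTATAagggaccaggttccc
Cyp2d9, chr15:82452334-82452369, plus strand: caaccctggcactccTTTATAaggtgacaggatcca
Cyp2e1, chr7:140763773-140763808, plus strand: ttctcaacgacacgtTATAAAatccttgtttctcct
Cyp2a4 and Cyp2a5 have the same letters here, and their 300-base windows were 97.7% identical. Cyp2e1 had the match too, although it was not among the genes called higher in liver in both genotypes. So did Cyp1a1, with the first letter 30 bases before the start, although that gene was below the filter level in every array.

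Of the 7 motifs searched, the others are given here, each read on both strands in the same windows. CCAAT was found in 56.5% of the 23 liver-higher genes, 44.4% of the 27 others and 41.1% of all genes. GCGTG, the core to which the aryl hydrocarbon receptor binds, was found in 3 of 23 (13%), 11 of 27 (40.7%) and 35.2%. GTTAAT, part of the site of the liver factor HNF1, was found in 4 of 23 (17.4%), 1 of 27 (3.7%) and 8.24%, while the full HNF1 palindrome, which contains GTTAAT, was found in none of the 50 genes and in 0.0111% of all. CAAAGTCCA, a site of HNF4, was found in Cyp3a11 and Cyp3a16 and in 0.555% of all genes. TTGCGCAA, a site of C/EBP factors, was found in none of the 50 and in 0.207% of all.

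The Cyp1 family oxidises aromatic compounds. Cyp1a2, which metabolises caffeine, was at 11.97 and 11.98 in wild-type liver and at 11.73 and 11.72 in Mgl2-DTR liver, against 4.52 to 5.18 in the 8 fat arrays. Its fitted liver excess was 7.10 in wild-type and 6.74 in Mgl2-DTR mice, with the fat level under the filter level. Its neighbour Cyp1a1, the inducible member, was below the filter level in every array, at 4.92 to 5.54. Cyp1b1, which is known from mesenchymal cells, had the opposite pattern. It was at 8.16, 8.31, 8.18 and 8.32 in epididymal fat, at 7.37, 7.51, 7.52 and 8.34 in inguinal fat and at 4.89, 4.48, 3.82 and 4.97 in liver, with wild-type arrays first in each tissue. No liver array reached a fat array. Liver was lower by a log2 difference of -3.15 (SE 0.31, adjusted p 2.34e-05) in wild-type and -3.70 (adjusted p 7.86e-06) in Mgl2-DTR mice. The liver level lay below the filter level, so the gene passed the filter through fat only. The size of this difference may be understated.

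In the Cyp2a, Cyp2f and related list of 13 genes, 9 were tested, and 7 were higher and 1 lower in wild-type liver. In Mgl2-DTR mice 8 were higher. Over all genes 23.2% were higher and 34.0% lower in wild-type liver, and 19.9% and 33.7% in Mgl2-DTR liver. Members that passed the filter in liver only, Cyp2a12, Cyp2a4 and Cyp2a5 among them, had to be higher in liver. The counts are therefore a description. Cyp2a12, a steroid hydroxylase of mouse liver, was at 11.94, 11.95, 11.90 and 11.91 in liver and at 3.92 to 4.73 in fat, an excess of 7.50 in wild-type and 7.81 in Mgl2-DTR mice. Cyp2a4, known as higher in females, was at 7.85 and 8.06 in wild-type liver, at 7.43 and 8.72 in Mgl2-DTR liver, and at 3.37 to 3.77 in fat. Its excess was 4.29 and 4.51. Cyp2a5, the coumarin hydroxylase next to it in sequence, was at 7.79 and 6.57 in wild-type and at 6.08 and 6.57 in Mgl2-DTR liver, against 2.50 to 3.13 in fat. Cyp2e1, the ethanol-oxidising P450, was high in every tissue. It ranged from 12.15 to 13.15 in fat and from 13.21 to 13.33 in liver, and its liver excess was 0.54 (SE 0.23, adjusted p 0.0669) in wild-type and 0.62 (adjusted p 0.0437) in Mgl2-DTR mice.

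Cyp2u1 and Cyp2r1 act on endogenous lipids. Cyp2u1 was present in both fat and liver and Cyp2r1 in liver, while the fat arrays of Cyp2r1 lay on both sides of the filter level. Cyp2u1, a fatty acid hydroxylase, was higher in liver by 2.13 in wild-type and by 1.33 in Mgl2-DTR mice. In liver its 4 arrays were at 9.31, 9.18, 9.22 and 8.21, of which the last, Mgl2-DTR replicate 2, was the lowest. Cyp2r1, which carries out the first activating step of vitamin D, was at 8.85 to 9.11 in liver and at 5.41 to 6.74 in fat, an excess of 2.70 and 3.07. Cyp27b1, which carries out the final activating step, and Cyp24a1, which breaks the hormone down, both known from kidney, were below the filter level in every array.

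The Cyp2d genes, relatives of human drug-metabolising CYP2D6, were tested for 7 of 10 members, and each of the 7 was higher in liver in both genotypes. Their median excess was 6.11 in wild-type and 5.62 in Mgl2-DTR mice, where the median of all genes was -0.13 and -0.15. Members that passed the filter in liver only, Cyp2d26 and Cyp2d13 among them, had to be higher in liver. The count and the medians are therefore a description. Cyp2d26 was at 11.99, 12.17, 12.21 and 12.03 in liver and at 4.44 to 5.05 in fat, an excess of 7.27 and 7.38. Cyp2d13 was at 11.42 to 11.73 in liver and at 3.53 to 4.71 in fat, an excess of 7.20 and 7.70. Cyp2d22 differed from these in having a fat level well above the filter level, 8.25 to 9.31, so that its liver excess was 2.33 and 2.04 (liver 10.86 to 11.18). Close copies within this subfamily may hybridise to each other's probes, so levels of single members are uncertain.

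The run of 7 Cyp2j genes showed how unlike neighbours could be. Cyp2j5, an arachidonic acid epoxygenase of liver and kidney, was at 11.69, 11.90, 11.78 and 11.84 in liver and at 3.13 to 3.73 in fat, under the filter level. Its fitted excess was 8.32 in wild-type and 8.49 in Mgl2-DTR mice. Cyp2j6 was higher in liver by 1.33 and 1.32, with a fat level near 7 (6.83 ± 0.29 in wild-type epididymal fat, SD, n = 2). Cyp2j9 differed by 0.28 (adjusted p 0.376) and 0.46 (adjusted p 0.158), which was not called. The other 4 genes of the run were below the filter level in the mean of every tissue.

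**Figure D2:**
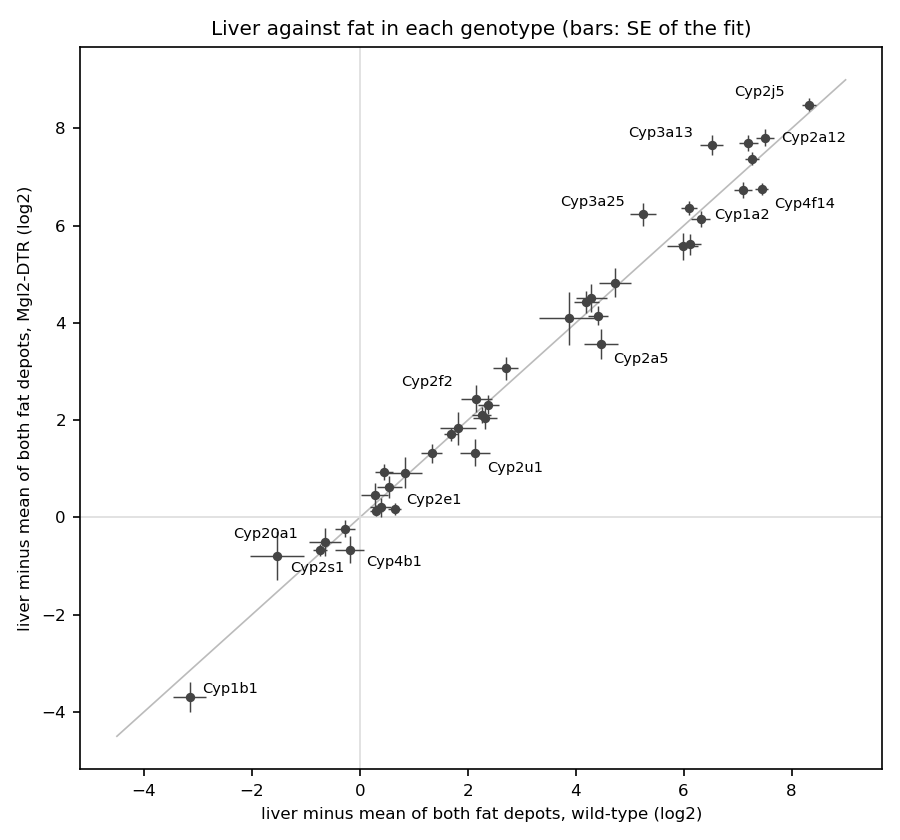
Liver minus the mean of both fat depots (log2) in wild-type mice (horizontal axis) and in Mgl2-DTR mice (vertical axis) for the 40 tested P450 genes, with SE bars from the fit and the line of equal values. Most points lie to the upper right and near the line, Cyp2j5 at the top (8.32 and 8.49), and Cyp1b1 lies at the lower left (-3.15 and -3.70). Each axis uses its own arrays.

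Of the Cyp4 genes outside Cyp4a, which hydroxylate the far end of fatty acids and eicosanoids, 9 of 12 were tested, and 5 were higher in wild-type liver and 4 in Mgl2-DTR liver. Over all genes 23.2% and 19.9% were higher. Members that passed the filter in liver only, Cyp4f14 among them, had to be higher in liver, so these counts are a description. The median liver excess of the 9 genes was 0.384 in wild-type and 0.205 in Mgl2-DTR mice. Cyp4f14, a leukotriene and fatty acid hydroxylase, was at 10.72, 10.98, 10.62 and 10.38 in liver, an excess of 7.45 and 6.75. The genes whose values over the 12 arrays were most like it were Apom (Pearson r 0.999), Hao1 (0.999) and Dpys (0.999), a description that follows the liver and fat levels. Cyp4v3, the mouse form of the gene mutated in Bietti crystalline dystrophy, was at 8.88 to 9.54 in fat and 11.10 to 11.54 in liver, an excess of 2.26 and 2.11. Cyp4f13 was higher in liver by 1.70 and 1.71. Cyp4b1, known from lung, was close to even, with a liver difference of -0.19 (adjusted p 0.58) in wild-type and -0.66 (adjusted p 0.0666) in Mgl2-DTR mice.

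Among genes of hormone and retinoid metabolism, Cyp17a1, a hydroxylase and lyase of steroid hormone synthesis, was at 7.85, 8.39, 8.47 and 9.41 in liver, an excess of 3.87 and 4.10. The steroidogenic genes Cyp11a1, Cyp11b1, Cyp11b2 and Cyp21a1 were below the filter level in every array. Cyp26a1, which breaks down retinoic acid, was at 9.36, 8.11, 9.55 and 8.95 in liver and at 3.78 to 4.46 in fat, an excess of 4.73 and 4.82. Cyp26b1, with the same activity, was higher in liver by 0.83 (adjusted p 0.0487) and 0.92 (adjusted p 0.0349), close to the threshold. Cyp39a1, an oxysterol hydroxylase, was higher in liver by 1.82 and 1.83, although its wild-type liver arrays differed by 1.52, at 7.42 and 8.94. The orphan Cyp20a1 was lower in liver by a small margin, a difference of -0.73 (SE 0.13, adjusted p 0.00107) in wild-type and -0.67 (adjusted p 0.00189) in Mgl2-DTR mice, with liver at 7.26 to 7.49 and fat at 7.84 to 8.24. In bulk tissue, fewer cells of a type and less RNA per cell cannot be told apart.

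No P450 gene of the 40 was called between Mgl2-DTR and wild-type mice in any tissue by limma after adjustment. In epididymal fat 0 of 40 were called, against 0.0315% of all genes, in inguinal fat 0 against 0.197%, and in liver 0 against 0.0708%. At an unadjusted p under 0.05 there were 2, 4 and 5 genes of 40, where all genes gave 6.98%, 6.93% and 5.53%. The genotype groups did not overlap for 13, 22 and 11 of the 40, and for 29.5%, 46.9% and 34.4% of all genes. The median change was 0.023, 0.15 and 0.028 in the 40 genes, against 0.0049, 0.10 and 0.011 over all genes.

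**Figure D3:**
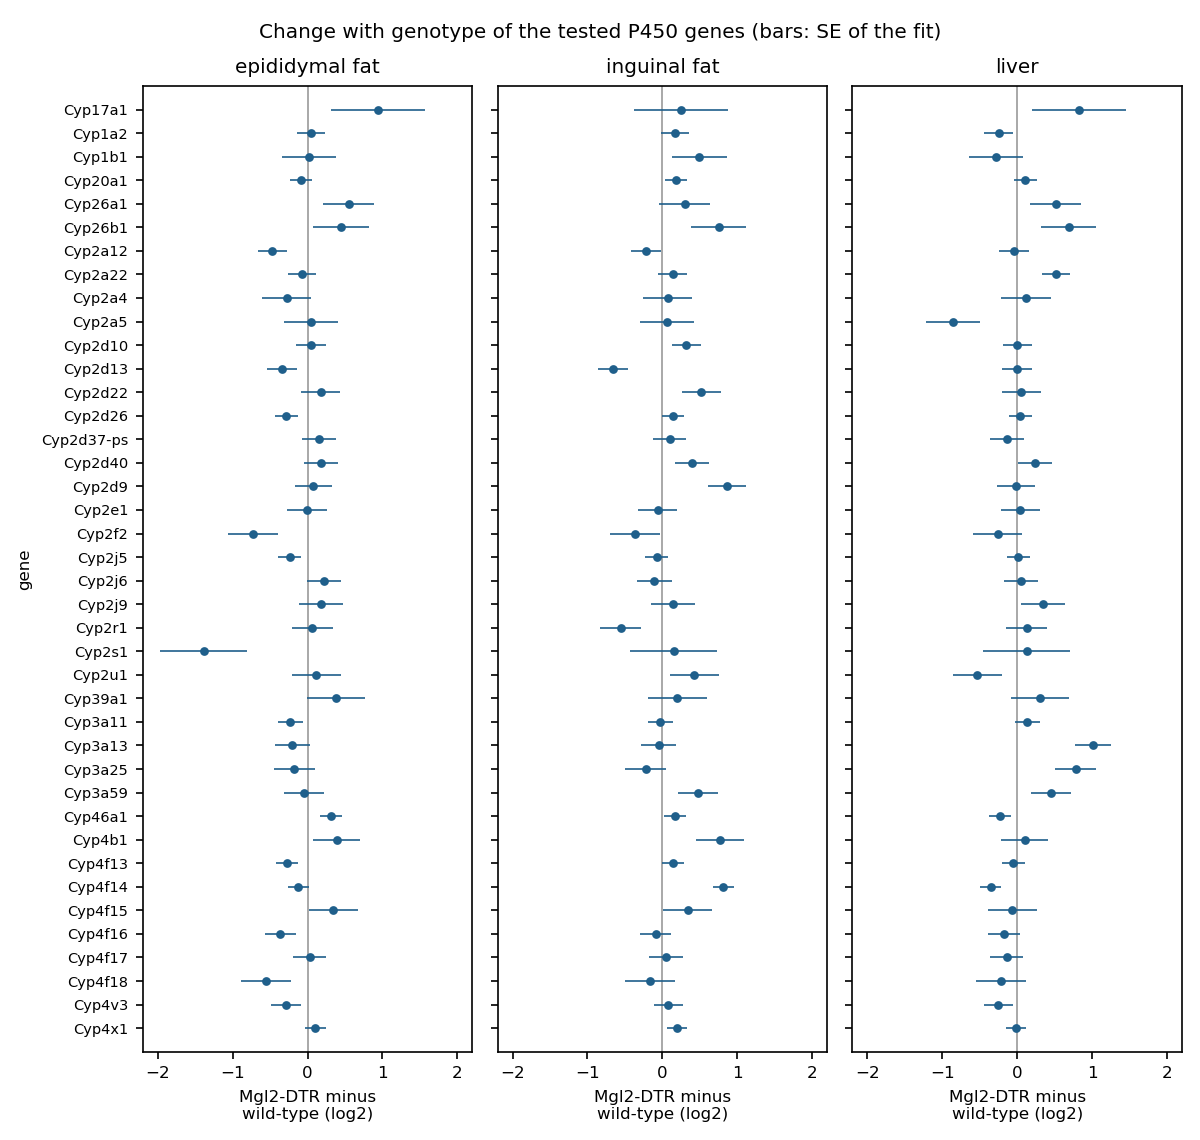
Mgl2-DTR minus wild-type (log2) for the 40 tested P450 genes (rows) in epididymal fat, inguinal fat and liver, with SE bars from the fit. Most points lie near 0, and the farthest points are Cyp2s1 in epididymal fat (-1.39) and Cyp3a13 in liver (1.01), neither of which was called.

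The Cyp3a genes encode enzymes that clear many drugs and steroids. In liver Cyp3a13 was at 10.70 and 10.41 in wild-type and at 11.15 and 11.98 in Mgl2-DTR liver, so the groups did not overlap. The change was 1.01 (SE 0.24, adjusted p 0.381). Without Mgl2-DTR replicate 1 it was 1.43 (adjusted p 0.0412), and without Mgl2-DTR replicate 2 it was 0.60 (adjusted p 0.996). Cyp3a25 was at 8.36 and 8.26 in wild-type and at 9.55 and 8.63 in Mgl2-DTR liver, a change of 0.78 (SE 0.27, adjusted p 0.761). Without Mgl2-DTR replicate 1 that change was 0.32, and without Mgl2-DTR replicate 2 it was 1.24, neither called. Cyp3a59 was at 7.70 and 6.83 against 7.97 and 7.46, and Cyp3a11, the main Cyp3a gene of adult male mouse liver, at 10.21 and 10.52 against 10.62 and 10.38, so that these groups overlapped. All 4 tested Cyp3a changes were positive, with a median of 0.62, and none was called.

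Cyp3a44, a close relative known as higher in female liver, had the clearest difference between genotypes, but it was under the filter level in the mean of the 4 liver arrays and so was not among the 40. It was at 4.54 and 4.29 in wild-type and at 6.24 and 5.88 in Mgl2-DTR liver, and at 2.99 to 3.48 in fat. With no filter on dim genes, the change in liver was 1.65 (SE 0.20, adjusted p 0.0423), called with 0.0451% of the 22180 genes. The 2 Mgl2-DTR arrays both lay above the wild-type ones. The call was lost when any single liver array was left out, with changes of 1.47 to 1.83 and adjusted p from 0.133 to 0.266. It was also lost with the replicate number as a block (adjusted p 0.152). The call held after quantile normalization (adjusted p 0.0195), after cyclic loess (0.0256) and with eBayes trend and robust (0.0244). With no filter, the liver change also differed from the mean change in fat, by 1.85 (SE 0.24, adjusted p 0.0275), where 0.131% of genes were called. It stayed called after quantile normalization (adjusted p 0.0212), cyclic loess (0.0223), with eBayes trend and robust (0.0173) and with the replicate block (0.0457). This call too was lost without any single liver array (adjusted p 0.0994 to 0.157), and the fat values lay far under the filter level, so a change in fat could hardly be measured. Of the 27 genes under the filter level, 1 was called between genotypes in liver and 0 in each fat depot. Over all genes without a filter, 0.0451% were called in liver and 0.00451% in epididymal fat. At an unadjusted p under 0.05 there were 3, 1 and 3 of the 27 in liver, epididymal fat and inguinal fat. The share of all genes at that p was not computed without a filter, nor the called share in inguinal fat, so these counts lack a background.

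The probe sets that Cyp3a41a and Cyp3a41b share with Cyp3a11 and Cyp3a44 overlapped between genotypes in liver. One was at 10.07 and 10.44 in wild-type and at 10.38 and 10.24 in Mgl2-DTR liver, a difference of 0.054, and the other differed by 0.052. Such a probe set adds up several genes, so a change in 1 dim gene beside a bright one would be hidden. Cyp3a16, another gene known from young and female liver, was at 2.66 to 3.0 in liver and Cyp3a57 at 2.86 to 3.01, both under the filter level. Close copies may hybridise to the Cyp3a44 probes, so its identity as the changed gene is uncertain.

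**Figure D4:**
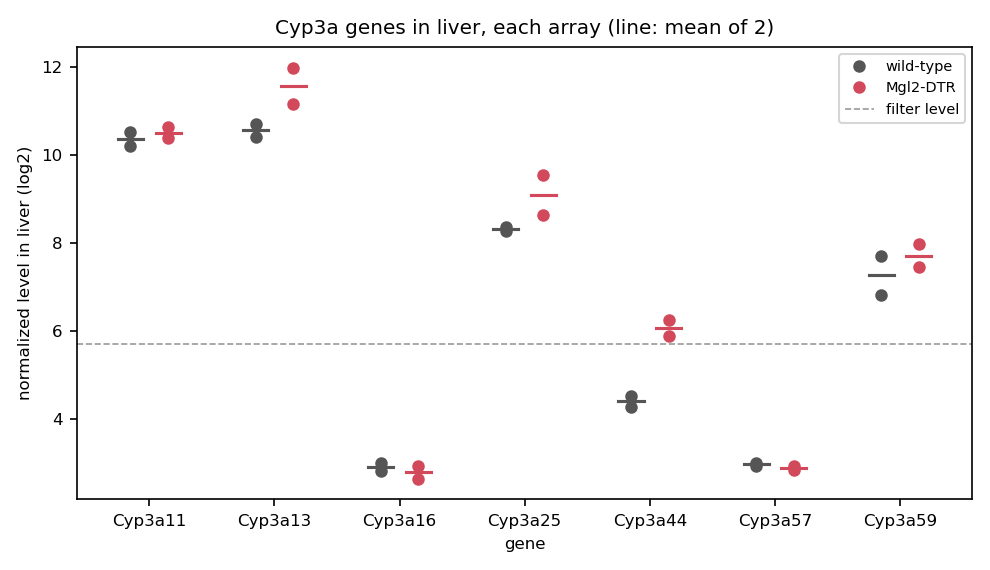
Normalized level (log2) of the 7 Cyp3a genes with a probe set of their own in each liver array (points), with the mean of 2 arrays (line) and the filter level (dashed, 5.71). Cyp3a44 lies at 4.29 and 4.54 in wild-type and at 5.88 and 6.24 in Mgl2-DTR liver, while Cyp3a11 overlaps between genotypes.

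The promoter windows of Cyp3a11, whose liver arrays overlapped between genotypes, and of Cyp3a44 and Cyp3a13, whose arrays did not, are printed from RefSeq (GRCm38.p6), each 300 bases on the minus strand, with matches of the searched motifs in capitals. Cyp3a11 has TATAAA and the HNF4 letters CAAAGTCCA, Cyp3a44 has TATAAA, and Cyp3a13 has ATTGG, which is CCAAT on the opposite strand.
Cyp3a11, chr5:145879805-145880104: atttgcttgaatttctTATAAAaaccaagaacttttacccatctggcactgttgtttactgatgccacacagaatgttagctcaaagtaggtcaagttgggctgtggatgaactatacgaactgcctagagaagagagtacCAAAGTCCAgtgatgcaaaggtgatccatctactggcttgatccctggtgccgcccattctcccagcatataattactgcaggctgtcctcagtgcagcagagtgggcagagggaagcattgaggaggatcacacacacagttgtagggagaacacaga
Cyp3a44, chr5:145805825-145806124: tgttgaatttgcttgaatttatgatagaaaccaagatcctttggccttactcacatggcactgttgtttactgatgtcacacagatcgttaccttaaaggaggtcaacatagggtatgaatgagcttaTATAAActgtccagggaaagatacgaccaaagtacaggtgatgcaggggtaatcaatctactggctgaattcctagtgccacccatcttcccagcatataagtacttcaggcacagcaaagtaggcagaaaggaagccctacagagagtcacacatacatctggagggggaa
Cyp3a13, chr5:137921570-137921869: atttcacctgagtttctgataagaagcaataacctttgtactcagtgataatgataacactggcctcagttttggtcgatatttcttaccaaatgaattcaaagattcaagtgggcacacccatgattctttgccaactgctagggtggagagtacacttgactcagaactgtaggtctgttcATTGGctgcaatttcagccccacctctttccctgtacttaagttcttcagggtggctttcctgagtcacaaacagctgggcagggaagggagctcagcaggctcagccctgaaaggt
The Cyp3a11 and Cyp3a44 windows were 71.5% identical in a pairwise alignment, those of Cyp3a16 and Cyp3a44 93.4%, and those of Cyp3a25 and Cyp3a59 96.3%. Cyp3a13 was 52.9% identical to Cyp3a44, near the median of 54.2% over the 21 pairs of the subfamily. Cyp3a16, with nearly the letters of Cyp3a44, stayed near 3 in all liver arrays. The letters CAAAGTCCA were not found in the Cyp3a44 window.

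The other liver changes below were not called either. Cyp17a1 was at 7.85 and 8.39 in wild-type and at 8.47 and 9.41 in Mgl2-DTR liver, a change of 0.82 (SE 0.63, adjusted p 1.0). Without Mgl2-DTR replicate 2 it was 0.35, and without Mgl2-DTR replicate 1 it was 1.29. Cyp2a5 had a change of -0.85, with overlapping arrays (7.79 and 6.57 against 6.08 and 6.57). Cyp2a22 had a change of 0.52 and Cyp4f14 one of -0.35. Cyp2a4, the tested gene of the female-predominant list, had a change of 0.12. In a list of P450 genes from the subfamilies outside the rule, 22 of 27 genes with a probe set were tested. In liver Cyp2b9 (change 3.41, adjusted p 0.0110), Cyp4a14 (1.88, adjusted p 0.0152) and Cyp2c38 (1.28, adjusted p 0.0360) rose and Cyp4a12b fell (-1.72, adjusted p 0.0360). The comparison of those subfamilies with the 40 genes was not tested.

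In inguinal fat the smallest p belonged to Cyp4f14. It was at 3.28 and 3.30 in wild-type and at 4.13 and 4.07 in Mgl2-DTR mice, a change of 0.81 (SE 0.14, adjusted p 0.0854). All 4 values lay under the filter level, so the gene was barely detected there. With array weights the adjusted p was 0.0203, and without any 1 of the inguinal arrays it was 0.331 to 0.548. Cyp2d9 was at 3.29 and 3.24 against 4.13 and 4.11, a change of 0.86 (SE 0.25, adjusted p 0.555), and Cyp2d13 at 4.71 and 4.59 against 3.99 and 3.98, a change of -0.66 (SE 0.20, adjusted p 0.583), both under the filter level as well. Cyp4b1 was the one gene of this group with a clear signal, at 8.56 and 9.09 in wild-type and 9.64 and 9.55 in Mgl2-DTR inguinal fat. Its change was 0.77 (SE 0.32, adjusted p 0.699). The macrophage genes moved between the genotypes in the same arrays, as given above, and their part in these values was not tested.

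In epididymal fat Cyp2s1, an epithelial P450 that metabolises retinoids and eicosanoids, had the largest difference. It was at 9.64 and 7.41 in wild-type and at 7.21 and 7.07 in Mgl2-DTR mice, a change of -1.39 (SE 0.58, adjusted p 0.710). The value rested on 1 array. Without wild-type replicate 1 the change was -0.27, and without wild-type replicate 2 it was -2.50 (adjusted p 0.00580). Wild-type replicate 1 was also the array with the highest macrophage mean (10.50), and its epithelial mean, 5.96, was the lowest of the 4. The part of these cells in the result was not tested. Cyp2ab1, under the filter level throughout, was at 5.37 and 5.38 against 4.26 and 4.23. With no filter its change was -1.13 (SE 0.14, adjusted p 0.0632), not called, where 0.00451% of the genes were called.

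No P450 gene of the 40 was called for a difference between tissues in its genotype change. For the inguinal minus the epididymal change 0 of 40 and 0% of all genes were called by limma, with 1 of 40 and 2.86% at an unadjusted p under 0.05. For the liver change minus the mean change in fat 0 of 40 and 0.236% were called, with 4 of 40 and 7.94% unadjusted. The gene with the unadjusted value between depots was Cyp4f14, with a difference of 0.94 (SE 0.20, adjusted p 0.995). The difference for Cyp2s1 was 1.54 (SE 0.82), and without epididymal wild-type replicate 2 it was 2.66 (adjusted p 0.0425), which was called.

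Between the fat depots, Cyp2f2 had the clearest difference. Cyp2f2 is a naphthalene-oxidising enzyme known from the airway's club cells. It was at 8.75, 9.92, 8.42 and 8.79 in epididymal fat, at 12.01, 12.01, 11.41 and 11.88 in inguinal fat and at 12.81, 12.86, 12.68 and 12.46 in liver, wild-type first. All inguinal arrays lay above all epididymal ones, and in this probe set inguinal fat lay nearer to liver than to epididymal fat. The inguinal minus epididymal difference was 2.67 (SE 0.33, adjusted p 0.00424) in wild-type and 3.03 (adjusted p 0.00276) in Mgl2-DTR mice. A second probe set of the gene gave 1.74 and 1.46. Its wild-type means were 4.77 in epididymal fat, 6.51 in inguinal fat and 8.40 in liver. In Mgl2-DTR mice they were 4.87, 6.33 and 7.70. By this probe set inguinal fat lay about midway between epididymal fat and liver. Its epididymal means were under the filter level, so this position depends on where the dim values lie. Without both inguinal arrays high in muscle genes the wild-type difference was 2.67 (adjusted p 0.0737), no longer called, and the Mgl2-DTR difference was still called. In all, 2 of 40 genes were called between depots in wild-type mice, where 1.49% of all genes were called, and 2 in Mgl2-DTR mice, where 1.96% were. At an unadjusted p under 0.05 there were 6 and 8 of 40, against 15.7% and 17.6%.

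The other calls between depots were less firm. Cyp2s1 was lower in wild-type inguinal than epididymal fat, with a difference of -2.94 (SE 0.58, adjusted p 0.0445), with 5.79 and 5.40 against 9.64 and 7.41 in epididymal fat. In Mgl2-DTR mice the difference was -1.40 (adjusted p 0.262). The wild-type call was lost in 7 of 15 other settings, among them without inguinal wild-type replicate 1 (adjusted p 0.175) or replicate 2 (adjusted p 0.226), and the inguinal and liver levels were at the filter level. Cyp4f14 was higher in Mgl2-DTR inguinal fat by 0.71 (SE 0.14, adjusted p 0.0377), at levels under the filter level, and lost that call in 10 of 15 settings, among them without any 1 of the 4 Mgl2-DTR fat arrays (adjusted p 0.0684 to 0.213). Mesothelial marker genes moved with the depots, with a mean of 7.53 to 8.44 in epididymal and 5.08 to 5.43 in inguinal fat. Their part in the result was not tested.

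**Figure D5:**
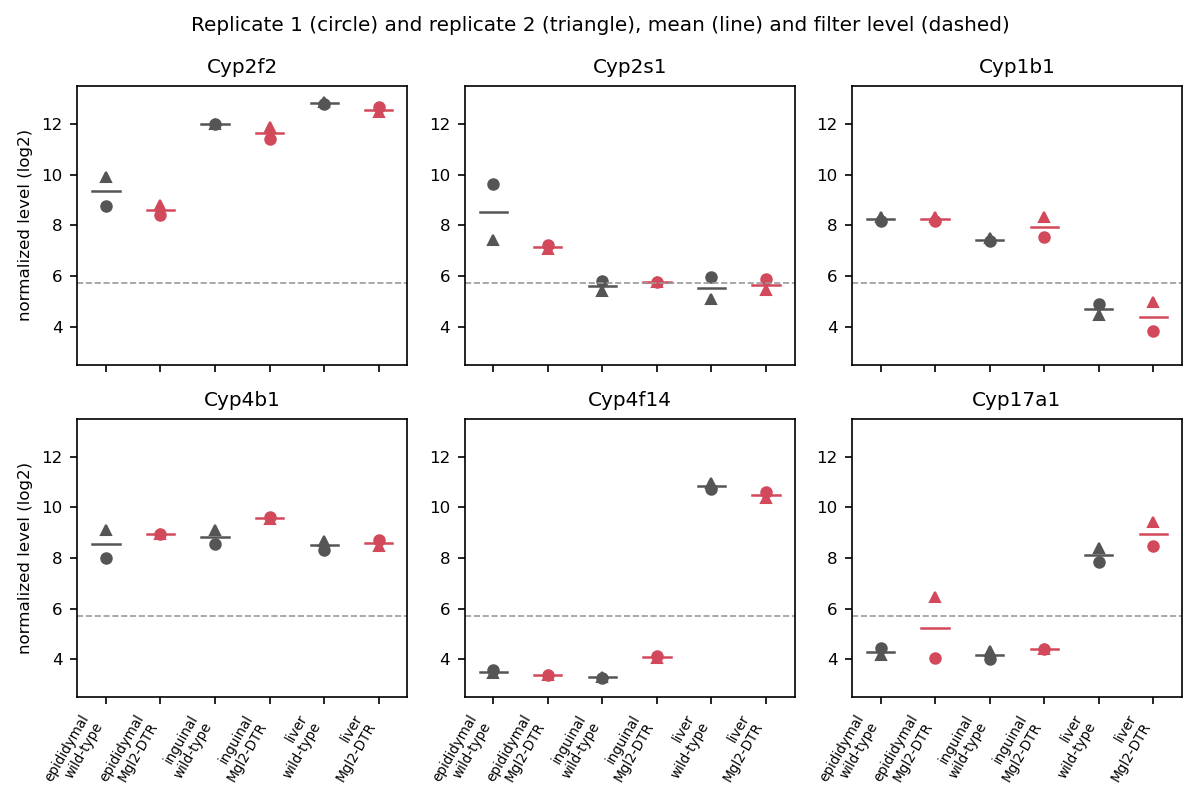
Normalized level (log2) of 6 P450 genes in each array, by tissue and genotype (circle replicate 1, triangle replicate 2, line mean, dashed line filter level). Cyp2f2 is at 11.41 to 12.01 in inguinal and 8.42 to 9.92 in epididymal fat, and 1 wild-type epididymal array of Cyp2s1 (9.64) and 1 Mgl2-DTR epididymal array of Cyp17a1 (6.46) lie far from their partners.

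Replicates of a group differed by more than 1.5 in 4 of the 67 genes. Besides Cyp2s1 and Cyp39a1, given above, these were Cyp17a1 (4.05 and 6.46) and Cyp2j13 (3.99 and 5.73) in Mgl2-DTR epididymal fat. In both, the high array was replicate 2, the one with high duct and testis genes. The Leydig cell markers with a probe set were at a mean of 4.09 to 4.47 in every array, and at 4.23 in this one. The part of duct or testis RNA in these values was not tested. Without Mgl2-DTR replicate 1, which leaves the array with duct genes alone in its group, Cyp17a1 was called between genotypes in epididymal fat, at 2.15 (adjusted p 0.0229). The median replicate difference of the 40 genes was 0.17 to 0.28 across groups, against 0.15 to 0.24 over all genes.

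The proteins that P450 enzymes work with were also measured. Of 11 electron donors, 7 were tested, and 0 were called between genotypes in any tissue, 0 also at an unadjusted p under 0.05. In wild-type mice 5 were higher and 1 lower in liver than in fat, and in Mgl2-DTR mice 4 and 1. Over all genes, 23.2% were higher and 34.0% lower in wild-type mice, and 19.9% and 33.7% in Mgl2-DTR mice, which is also the background for the lists that follow. Any gene of these lists that passed the filter in liver only had to be higher there. Pgrmc1, a haem-binding partner of P450 enzymes, was higher in liver by 2.50 and 1.96, and Fdx1, the mitochondrial ferredoxin, by 1.26 and 0.91. Of 12 haem genes, 11 were tested and 0 were called between genotypes, with 0 at an unadjusted p under 0.05. Cpox, an enzyme of haem synthesis, was higher in liver by 2.78 and 3.19. All 12 nuclear receptors of the list of P450 regulators were tested, 0 were called between genotypes (1, 0 and 2 at an unadjusted p under 0.05 in epididymal fat, inguinal fat and liver), and 8 were higher in liver in each genotype, with 2 lower in wild-type and 1 lower in Mgl2-DTR mice. Nr1i3, the receptor CAR, was higher in liver by 5.47 and 5.58, and Nr1i2, the receptor PXR that drives Cyp3a11, by 4.90 and 4.69. In the aryl hydrocarbon receptor list of 9 genes, 4 were tested and 0 were called between genotypes, with 0, 1 and 1 at an unadjusted p under 0.05. Ahr itself had changes of 0.42 (adjusted p 0.667) in inguinal fat and 0.40 (adjusted p 0.803) in liver, and was higher in liver than in fat by 1.83 and 2.11. These calls are by limma, adjusted over all genes tested, as in the P450 comparisons.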

How the data were processed

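The authors deposited normalized log2 levels, 1 column for each of 12 samples, with column medians of 5.19 to 5.28. The submitters' processing notes name limma. How background was corrected, arrays were normalized and probes summarized is not given in the sources used here, nor is a genome build. Per the labels' protocols, tissue was homogenized in Trizol and RNA was DNase-treated, purified on columns and labelled with the GeneChip WT PLUS kit.

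Of 41345 probe sets, 23521 carried 1 gene symbol in the platform annotation, 1814 several and 16010 none listed. The probe set with the highest mean stood for each of 22180 genes. RefSeq held 23328 of the Entrez identifiers and altered 0 symbols. Genes with a mean above 5.71 in at least 1 tissue were fitted with limma 3.58.1 in R 4.3.3, with 1 mean per group (6 residual and 3.35 prior degrees of freedom), two-sided, adjusted by Benjamini and Hochberg over 12710 genes. The 9 comparisons were the genotype change in each tissue, its differences between depots and between liver and fat, and liver against fat and inguinal against epididymal fat within each genotype. The code was tested on simulated data.

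The members, lists, motifs and tests were chosen with earlier results of these data known. The genes named with values follow a rule: those called between genotypes, and otherwise in each tissue and direction up to 3 with the smallest p, groups apart and a change of at least 0.58. It also takes the genes with the highest level or tissue difference, the highest of each list, those whose replicates differ by over 1.5, and the other pathway genes with the smallest p. Beyond it, Cyp3a44, Cyp3a59, Cyp3a16, Cyp3a57, Cyp2ab1, Cyp2a5, Cyp2a22, Cyp2j9, Cyp4f13, Cyp1a1 and others were named for comparison after their values were seen. Alternatives were a changed filter, probe choice, normalization, variance model, array weights, a block, fewer arrays and a looser threshold. Within a tissue, same-numbered wild-type and Mgl2-DTR arrays did not deviate together (correlations 0.053, -0.12 and 0.088 in epididymal fat, inguinal fat and liver). The numbers were therefore not taken as pairs. Whether same-numbered arrays of different tissues came from the same mouse is not given in the labels and was not checked.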

Additional observations from a re-analysis of the deposited data

How the results depend on the processing

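Of the named genotype changes none reversed in 14 to 16 alternative settings. Most of these settings could not have reversed them. The genotype groups of these genes do not overlap, so leaving out or weighting arrays keeps the sign. A changed filter, variance model or block leaves the estimate as it is, so only a new normalization could have reversed it. Leaving out 1 array gave 0 to 1 P450 genes called between genotypes in epididymal fat, 0 in inguinal fat, 0 to 1 in liver, 0 to 1 for the inguinal minus the epididymal change and 0 for the liver minus the fat change. Between depots it gave 1 to 3 in each genotype, and for liver against fat 30 to 34 in wild-type and 30 to 31 in Mgl2-DTR mice. With no filter on dim genes 1 gene was called in liver and 1 for the liver minus the fat change, Cyp3a44 in both, and 1 between depots in wild-type mice. In inguinal fat 1 gene, Cyp4f14, was called with array weights and at an adjusted p under 0.10. Between depots in wild-type mice 1 was called after quantile normalization, after cyclic loess and with the fat arrays alone, and 0 without the 2 inguinal arrays high in muscle genes. Between depots in Mgl2-DTR mice 1 was called after quantile normalization, with eBayes trend and robust, with the replicate block, with the fat arrays alone, without those 2 arrays, and without 2 epididymal arrays. The cause of these shifts was not tested. The replicate block was fitted although the numbers did not pair the arrays of the 2 genotypes. It called 0 genes between genotypes in each tissue, and a crossed block in inguinal fat also called 0. Settings that leave out 2 arrays, and the crossed block, were chosen after seeing the data. The low number of arrays and, for genes near or under 5.71, weak signal limit what can be called.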
